A study of Homo sapiens with 12 samples.

Results

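AP-1 is a family of paired transcription factors, and the 7 genes that code for its JUN proteins (JUN, JUNB and JUND) and FOS proteins (FOS, FOSB, FOSL1 and FOSL2) are described here. They were taken by their symbols from a table of 34687 gene rows, in which each of the 7 had 1 row and none had a second row under an older name. Expression was measured on Illumina HumanHT-12 v4 BeadChips, bead arrays on which labelled RNA lights up the probes it binds, in HCT116, an established colon cancer cell line, and PANC1, an established pancreatic ductal carcinoma line. Both lines were given the solvent DMSO (0.05%) as control, ICG-001 (10 uM) or C646 (10 uM) for 12 or 96 h, which makes 12 groups. ICG-001 blocks the contact between CBP, a histone acetyltransferase and co-activator, and β-catenin, whereas C646 inhibits the acetyltransferase activity of CBP and of its relative p300. Each group had 1 value per gene, averaged by the authors over 2 arrays, and over 3 for PANC1 with ICG-001 at 12 h. Cells for 12 h were treated at a higher density than cells for 96 h, which were passaged and given fresh medium and drug each day, so that time, density and handling cannot be told apart.

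JUN and FOS proteins carry a basic region that contacts DNA and a leucine zipper through which they pair. JUN proteins pair with themselves, with FOS proteins and with some ATF proteins, whereas FOS proteins bind DNA stably only with a partner. The pairs bind the TPA response element TGACTCA and, with ATF partners, the cAMP response element TGACGTCA. FOS, FOSB, JUNB and JUN are immediate early genes, transcribed within minutes of a growth signal, for FOS through serum response factor and MAP kinases, and their mRNAs are short-lived. FOSL1, which codes for Fra-1, is a later gene that depends on sustained ERK signaling and on AP-1 itself, and it is known for its high level in invasive carcinoma cells. CBP is also a known co-activator of JUN and FOS proteins.

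Promoters of 6 of the 7 genes were found among RefSeq sequences of the GRCh38.p14 assembly, and the 250 bases before the transcript start are shown for the JUN genes and for FOS, whose signals are described next. Capitals mark the motifs that were searched on both strands (TGACTCA, TGACGTCA, TGACATCA and TATAAA), and each sequence runs 5′ to 3′ toward the start of its gene. JUN lies at chr1:58784048-58784297 on the minus strand, JUNB at chr19:12791236-12791485 on the plus strand, JUND at chr19:18281623-18281872 on the minus strand and FOS at chr14:75278578-75278827 on the plus strand.
JUN: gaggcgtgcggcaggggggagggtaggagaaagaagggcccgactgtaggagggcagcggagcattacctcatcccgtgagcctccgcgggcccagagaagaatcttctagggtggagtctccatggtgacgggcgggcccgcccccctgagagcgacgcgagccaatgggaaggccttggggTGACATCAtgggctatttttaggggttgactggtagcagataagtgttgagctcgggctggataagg
JUNB: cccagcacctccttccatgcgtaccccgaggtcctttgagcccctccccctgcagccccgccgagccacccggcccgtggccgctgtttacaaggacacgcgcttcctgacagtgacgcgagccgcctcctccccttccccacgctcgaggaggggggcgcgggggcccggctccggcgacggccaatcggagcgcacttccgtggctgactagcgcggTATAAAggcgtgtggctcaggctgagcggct
JUND: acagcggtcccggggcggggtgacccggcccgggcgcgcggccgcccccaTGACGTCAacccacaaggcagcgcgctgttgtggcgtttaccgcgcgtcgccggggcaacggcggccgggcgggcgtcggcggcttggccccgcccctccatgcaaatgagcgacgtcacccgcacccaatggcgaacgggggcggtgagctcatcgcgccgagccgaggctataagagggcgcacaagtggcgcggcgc
FOS: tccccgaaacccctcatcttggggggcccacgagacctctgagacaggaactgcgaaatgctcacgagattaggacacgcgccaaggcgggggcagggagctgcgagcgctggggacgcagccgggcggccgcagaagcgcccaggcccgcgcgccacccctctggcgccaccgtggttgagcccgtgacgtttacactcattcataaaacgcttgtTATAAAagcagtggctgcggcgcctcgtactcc
The JUN promoter held TGACATCA, the site at which JUN proteins are known to act on their own gene, 67 bases before the start, and 2.37% of the 35116 promoters held this motif in a window of the same length. JUND held TGACGTCA 200 bases before the start (1.65% of promoters). TATAAA lay 33 bases before the start of FOS, 30 before that of FOSB and 31 before that of JUNB, and 10.7% of promoters held it. None of the 6 windows held TGACTCA, which was present in 4.20% of promoters. These matches describe the letters only.

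Median signals, in array units of brightness, ranged over 139.05 to 139.64 for HCT116 and 132.69 to 133.53 for PANC1. The detection limit, set at the peak of a column's log2 signals plus a multiple of the background SD that leaves 0.99% of a normal background above, ran from 141.6 to 144.1 for HCT116 and from 134.4 to 138.0 for PANC1, and 44.5% to 48.3% of genes were above it. EPCAM, an epithelial marker, had a signal of 6553 to 9562 in HCT116 and of 508.7 to 873.1 in PANC1. The same 4 of 8 intestinal markers (CDX2, GPA33, EPCAM and CDH1) were above the limit in every column of HCT116 and of PANC1. CDX1, VIL1 and LGALS4 were under it in all 6 HCT116 columns, and CDX1, VIL1 and KRT20 in all 6 of PANC1. Of 8 pancreatic duct markers, 6 were above the limit in all columns of PANC1, and 6 in all columns of HCT116. Of 7 markers of other cell types, 5 (PTPRC, CD3E, PECAM1, COL1A2 and DCN) were under the limit in every column of each line. CD68 and COL1A1 were above it in every column of each line.

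In the account that follows, a treated column was divided by the DMSO column of the same line and time, and a gene was counted as changed, risen or fallen when the ratio was at least 1.5-fold with the brighter column above the limit. There were no replicate values, so no test was run and no difference has a replicate check. Genes that never passed the limit in a line had log2 ratios with an SD of 0.061 to 0.073 between 2 columns. This SD covers only those dim genes and does not measure the spread of expressed genes or of replicates. Counts of the AP-1 members are set beside the share of all genes that passed the same fold in the same comparison. The same holds for the target, kinase and JUN turnover lists, and for the immediate early list with ICG-001. The lines appeared to have been normalized apart, so lines are compared through ratios, and background was left in the signal, so that folds of dim genes are understated. The comparisons of both drugs at a given time share a DMSO column. RNA came from whole cultures, so fewer cells with a transcript and less of it per cell cannot be told apart.

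With ICG-001, AP-1 genes moved in both directions in HCT116. Of the 7 genes, 2 rose and 1 fell at 12 h, where 8.87% of all genes changed, and 2 rose and 2 fell at 96 h, where 9.93% changed. JUN and FOSL1 were the genes that rose at each time, JUNB fell at each time and FOS fell at 96 h. C646 lowered 1 of the 7 genes in HCT116 at 12 h, JUNB, where 3.97% of all genes changed, and changed none at 96 h, where 3.08% changed. In PANC1, ICG-001 raised 1 of the 6 genes that could be compared at 12 h, JUN (2.47% of all genes changed), and lowered 1 of 7 at 96 h, FOSL1 (7.5% changed). C646 lowered 2 of 7 in PANC1 at 12 h, JUND and FOSL1, where 6.58% of all genes changed, and 3 of 7 at 96 h, JUN, FOS and FOSL1, where 3.94% changed. By these calls C646 raised no member in either line, although FOSB in HCT116, at 0.54 and 0.44 with C646, passed the threshold after normexp background correction (0.98 and 0.69).

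**Figure D1:**
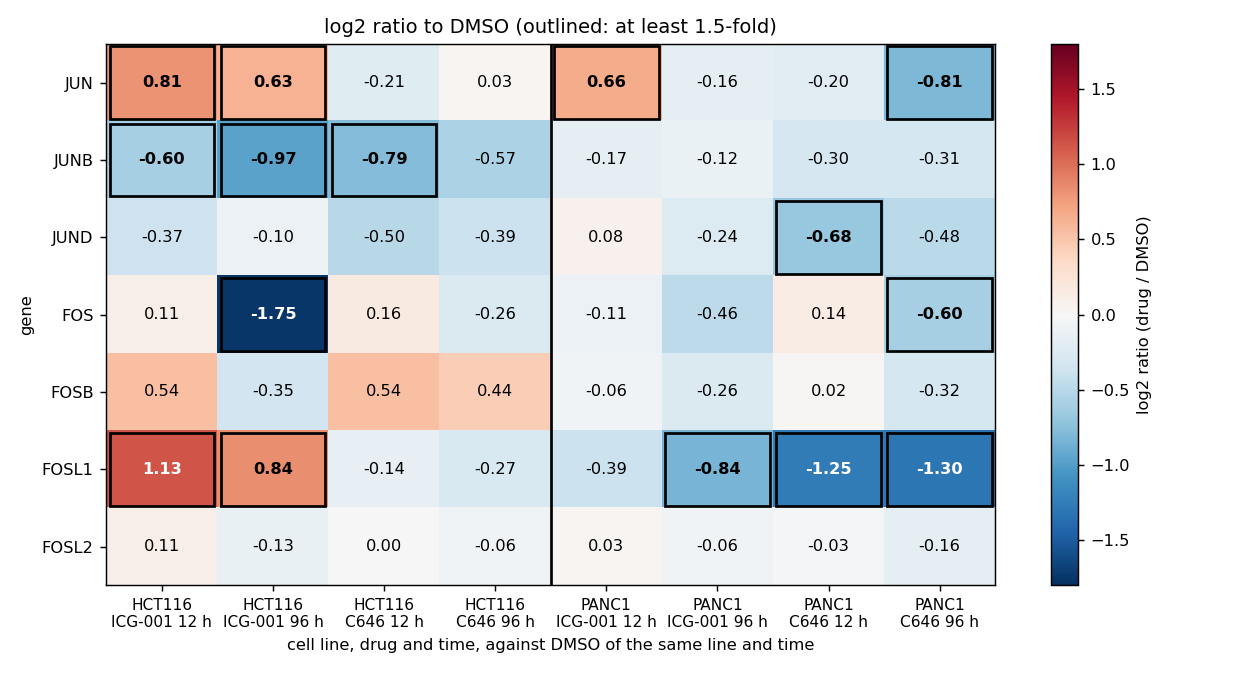
Log2 ratio of each treated column to DMSO of the same line and time (columns) for the 7 AP-1 genes (rows), with red for higher and blue for lower and an outline where the ratio was at least 1.5-fold. FOSL1 is red in HCT116 with ICG-001 (1.13 and 0.84) and blue in PANC1 with either drug, lowest with C646 (-1.25 and -1.30).

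FOSL1, at chr11:65892049-65900545, was the member whose response differed most between the lines. In HCT116 its signal was 391.7 with DMSO, 859.8 with ICG-001 and 354.7 with C646 after 12 h, and 361.4, 647.4 and 299.9 in the same order after 96 h. Both ICG-001 columns were above all other HCT116 columns, which lay between 299.9 and 391.7. In PANC1 its signal was 1924 with DMSO, 1470 with ICG-001 and 807.9 with C646 after 12 h, and 1527, 854.8 and 619.3 after 96 h. Here the DMSO column was the brightest and the C646 column the dimmest at each time. ICG-001 raised FOSL1 2.19-fold and 1.79-fold in HCT116, the 121st and 329th highest ratios in those comparisons. In PANC1, FOSL1 was 1.31-fold lower with ICG-001 at 12 h, short of the threshold, and fell 1.79-fold at 96 h. C646 lowered it 2.38-fold and 2.47-fold in PANC1, the 12th lowest of 17796 ratios at 12 h and the 4th lowest of 17350 at 96 h, whereas in HCT116 the log2 ratios with C646 were -0.14 and -0.27, within the threshold.

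The log2 ratio averaged over the times was 0.99 in HCT116 and -0.61 in PANC1 with ICG-001, a difference of 1.60. With C646 the means were -0.21 and -1.28, a difference of 1.07. FOSL1 was singled out with this difference known, so these values are a description. Neither difference was tested, since each group had 1 column and the times are not replicates. Of 17455 genes above the limit in at least 1 column of each line, 12 met a rule for opposite responses to ICG-001. They rose at least 1.5-fold at each time in HCT116 and fell at least 1.5-fold in PANC1 at 96 h. FOSL1 and the immediate early gene IER3 were among them, and 7 genes went the other way. The 12 also included the keratin 18 pseudogene rows KRT18P13, KRT18P17 and KRT18P28, so they need not be independent. No gene met the same rule with C646 in either direction.

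**Figure D2:**
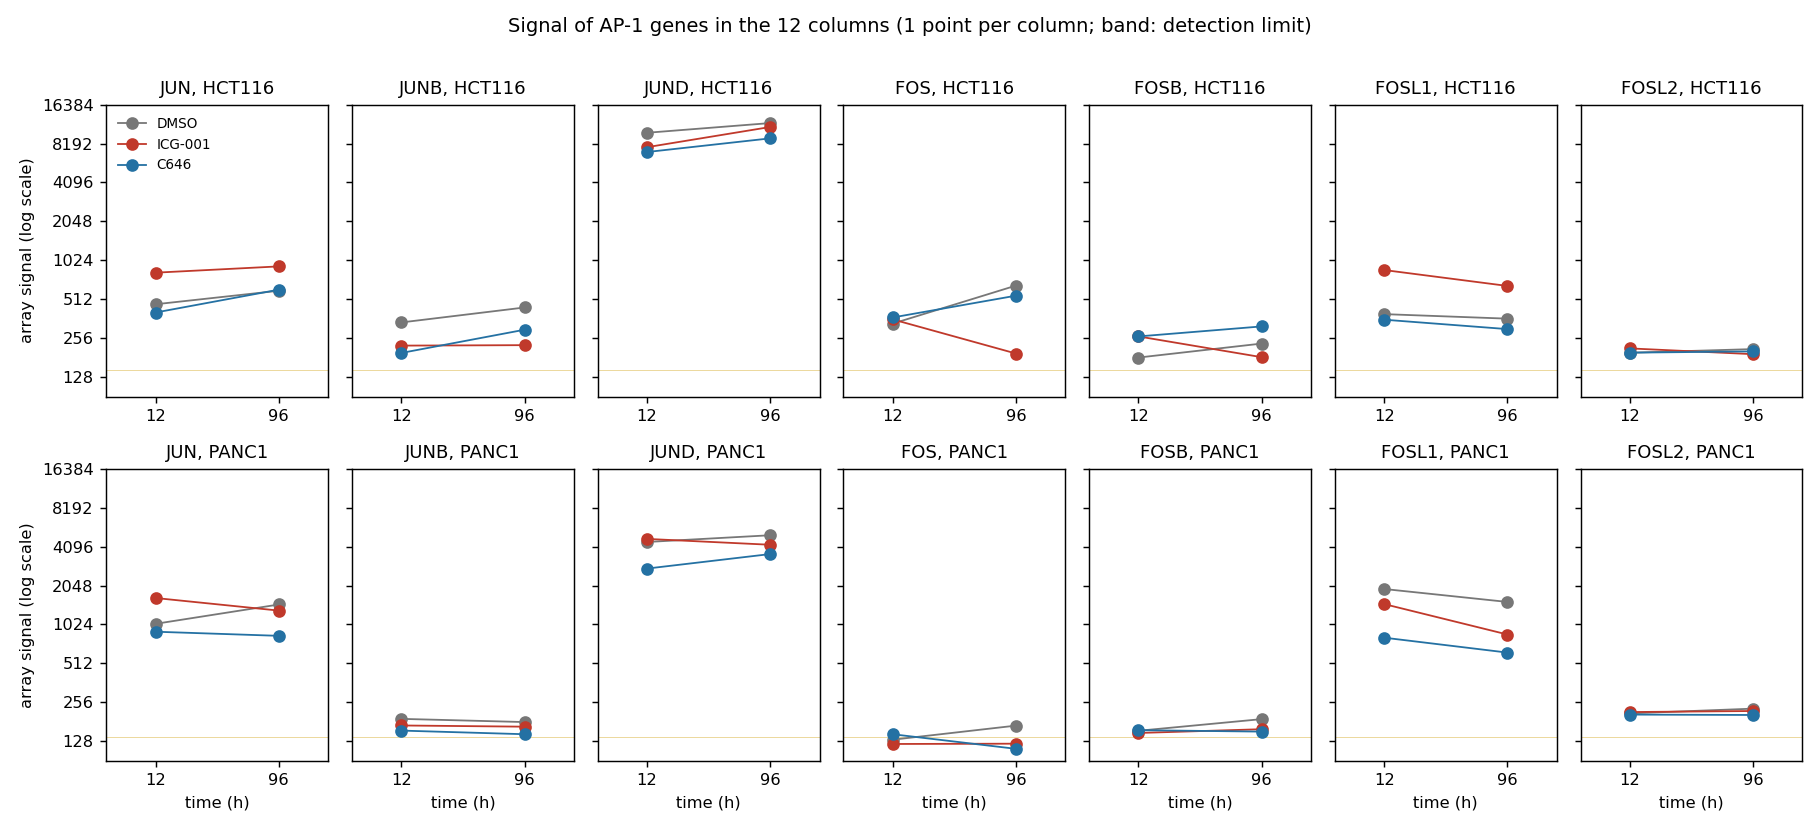
Signal (array units, log scale) of the 7 AP-1 genes at 12 and 96 h in HCT116 (upper row) and PANC1 (lower row), with 1 point per column for DMSO (gray), ICG-001 (red) and C646 (blue) and the detection limit as a thin horizontal band. The red FOSL1 points lie above the gray ones in HCT116 and below them in PANC1, and FOS in PANC1 lies at or near the limit.

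FOS, at chr14:75278828-75282230, codes for c-Fos, the founding FOS protein, and had the largest fall with ICG-001 among the members. In HCT116 its signal was 330.9 with DMSO, 356.5 with ICG-001 and 369.1 with C646 after 12 h, and 651.7, 194.0 and 544.4 after 96 h. The 3 columns of 12 h lay close together, while at 96 h the ICG-001 column was the lowest of all 6. ICG-001 lowered FOS 3.36-fold at 96 h, the 14th lowest of 17641 ratios, and the log2 ratio at 12 h was 0.11. Part of that distance lay in the control, since FOS rose 1.97-fold in HCT116 between DMSO at 12 h and DMSO at 96 h. Against DMSO of 12 h, FOS with ICG-001 at 96 h had a log2 ratio of -0.77 instead of -1.75.

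In PANC1, 2 columns showed FOS above the limit, DMSO at 96 h (168.5) and C646 at 12 h (144.5). Its other 4 signals were 111.4 to 131.1. With C646 at 96 h the measured signal was 1.51-fold lower than with DMSO, but this column was under the limit, so FOS was at least 1.25-fold lower there, and with the signal raised to the limit the call was lost.

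EGR1, a zinc finger factor induced by the same growth signals as FOS and singled out after its values were seen, fell in HCT116 with ICG-001 at 96 h as well. Its signal was 1361 with DMSO and 1738 with ICG-001 at 12 h, and 2554 and 801.8 at 96 h. Unlike FOS, it also fell with C646 at 12 h, to 615.6, with a log2 ratio of -1.14.

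FOSB, at chr19:45467996-45475179, codes for another FOS protein of the immediate early class, and it passed the threshold against DMSO nowhere. In HCT116 its signal was 180.6 with DMSO, 263.2 with ICG-001 and 263.2 with C646 after 12 h, and 231.8, 181.8 and 314.7 after 96 h. The drugs gave the same log2 ratio at 12 h, 0.54, and opposite ones at 96 h, 0.44 with C646 and -0.35 with ICG-001. In PANC1 its signals were 147.7 to 189.2. After a normexp background correction, FOSB passed 1.5-fold in all 4 HCT116 comparisons, and it was also lower in PANC1 with C646 at 96 h (-0.69). FOSL2, at chr2:28392858-28417317, codes for Fra-2 and varied least, from 191.8 to 212.6 in HCT116 and from 203.6 to 228.0 in PANC1, a range of 1.11-fold and 1.12-fold.

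JUN, at chr1:58780791-58784047, codes for c-Jun, the strongest activator among the JUN proteins. In HCT116 its signal was 467.0 with DMSO, 820.2 with ICG-001 and 403.2 with C646 after 12 h, and 594.3, 917.4 and 606.1 after 96 h. Both ICG-001 columns were again above the other 4, whereas the C646 columns lay near DMSO. ICG-001 raised JUN 1.76-fold at 12 h and 1.54-fold at 96 h in HCT116. In PANC1 the signal was 1034 with DMSO, 1638 with ICG-001 and 898.5 with C646 after 12 h, and 1460, 1309 and 834.9 after 96 h. ICG-001 raised JUN 1.58-fold at 12 h in PANC1, and the log2 ratio at 96 h was -0.16. C646 lowered it 1.75-fold at 96 h, the 51st lowest of 17350 ratios, and by 1.15-fold at 12 h, within the threshold. The choice of DMSO column mattered for JUN. Against DMSO of the other time, the log2 ratio was 0.46 for HCT116 with ICG-001 at 12 h, 0.17 for PANC1 with ICG-001 at 12 h and -0.31 for PANC1 with C646 at 96 h, each under the threshold of 0.58, while a fall passed it in PANC1 with C646 at 12 h (-0.70).

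JUNB, at chr19:12791486-12793315, codes for JunB, a weaker activator that can restrain JUN, and was lower than DMSO in all 8 comparisons. In HCT116 its signal was 337.8 with DMSO, 223.5 with ICG-001 and 196.0 with C646 after 12 h, and 440.9, 225.3 and 296.7 after 96 h. All 4 drug columns were below both DMSO columns. ICG-001 lowered JUNB 1.51-fold and 1.96-fold, and C646 lowered it 1.72-fold at 12 h, the 73rd lowest of 17636 ratios. At 96 h the C646 column was 1.49-fold lower, just short of the threshold, which it passed after normexp (log2 ratio -0.80). Just inside it was the fall with ICG-001 at 12 h, and against DMSO of 12 h the ICG-001 column of 96 h had a log2 ratio of -0.58 and missed the threshold. In PANC1 JUNB was dim, at 144.5 to 190.0, and its log2 ratios to DMSO were -0.12 to -0.31, but after normexp it passed the threshold with C646 at both times (-0.68 and -0.72).

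JUND, at chr19:18279694-18281622, codes for JunD, which is expressed in resting cells and is less inducible than its relatives. Its signal in HCT116 was 9932 with DMSO, 7681 with ICG-001 and 7047 with C646 after 12 h, and 11810, 11012 and 8992 after 96 h. None of the drug columns differed 1.5-fold from DMSO of the same time, and the drug column was below its DMSO column in all 4. Against DMSO of 96 h, however, JUND at 12 h passed 1.5-fold with ICG-001 and with C646. The C646 column of 12 h also passed against the mean of both DMSO columns. In PANC1 the signal was 4449 with DMSO, 4700 with ICG-001 and 2770 with C646 after 12 h, and 5017, 4234 and 3588 after 96 h. The C646 columns were the lowest of the 6. C646 lowered JUND 1.61-fold at 12 h and the log2 ratio was -0.48 at 96 h.

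ICG-001 was compared directly with C646 at the same dose and time, which uses no DMSO column. In HCT116, 2 of 7 genes were higher with ICG-001 at 12 h (6.12% of all genes differed), and at 96 h 2 were higher and 2 lower (6.48% differed). JUN exceeded its C646 signal 2.03-fold and 1.51-fold, and FOSL1 did so 2.42-fold and 2.16-fold. FOS was 2.81-fold lower with ICG-001 at 96 h and FOSB was 1.73-fold lower. In PANC1, 3 of 7 genes were higher with ICG-001 at 12 h, where 2.46% of all genes differed, and 1 of 6 at 96 h, where 6.76% differed. In PANC1 JUN exceeded its C646 signal 1.82-fold and 1.57-fold, FOSL1 was 1.82-fold higher and JUND 1.70-fold higher at 12 h. FOSL1 was 1.38-fold higher at 96 h, under the threshold. JUN was therefore higher with ICG-001 than with C646 in all 4 comparisons, and JUNB and FOSL2 differed by less than 1.5-fold in all 4. After normexp, however, JUNB passed the threshold in HCT116 at 96 h.

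**Figure D3:**
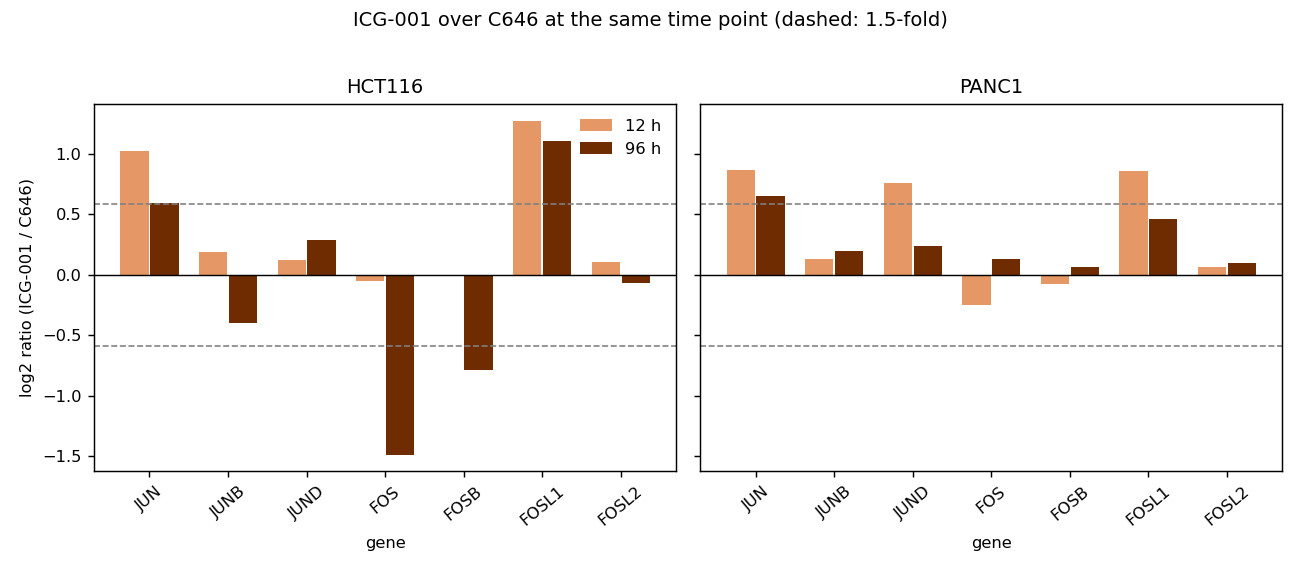
Log2 ratio of ICG-001 over C646 (bars; light 12 h, dark 96 h; 1 column per group, so no error bars) for the 7 AP-1 genes in HCT116 (left) and PANC1 (right), with dashed lines at 1.5-fold. JUN bars pass the line in each line of cells and at each time, and the lowest bar is FOS in HCT116 at 96 h, at -1.49.

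Columns of 1 treatment were also compared between 12 and 96 h, a difference that takes in time, density and handling. In HCT116, 1 of 7 genes was higher at 96 h than at 12 h with DMSO, FOS, where 3% of all genes differed, and its rise was the 26th highest of 17281 ratios. With ICG-001, 1 of 7 was lower at 96 h (6.77% of all genes differed), and it was again FOS, with a log2 ratio of -0.88. With C646, 2 of 7 were higher at 96 h, JUN at 0.59 and JUNB at 0.60 (6.96% differed). In PANC1 no AP-1 gene passed the threshold with DMSO, where 1.3% of all genes differed, or with C646, where 0.47% differed. FOSL1 was the 1 gene of 6 that was lower at 96 h with ICG-001 in PANC1 (3.95% differed), with a log2 ratio of -0.78. FOSL1 was lower at 96 h than at 12 h in every treatment of each line, with log2 ratios of -0.12 to -0.78.

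The partners outside the family were 7 bZIP genes, whose proteins pair with JUN proteins. ATF3, a stress-induced factor, was the partner that rose with ICG-001 at 12 h in both lines. In HCT116 its signal went from 273.4 to 590.2 at 12 h (log2 ratio 1.11) and from 264.9 to 367.4 at 96 h (0.47, under the threshold). In PANC1 it went from 140.3 to 234.1 at 12 h and from 178.6 to 287.8 at 96 h, log2 ratios of 0.74 and 0.69. With C646 its log2 ratios were -0.15 to 0.41 and none passed. JDP2, which represses AP-1 sites, rose with ICG-001 at 96 h in each line, by 0.77 in HCT116 (164.3 to 280.2) and by 0.76 in PANC1 (186.9 to 316.3), and stood at 0.46 and 0.44 at 12 h. ATF2, a partner of JUN at cAMP response elements, had ratios under the threshold throughout, with the lowest, -0.46, in HCT116 with ICG-001 at 96 h. BATF3 stayed under the threshold too and was highest, at 0.50, in PANC1 with ICG-001 at 96 h. BATF was under the limit in all columns, and ATF7 and BATF2 lay at or near the limit with no ratio that passed.

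Upstream of the family, few genes passed the threshold. SRF, the factor through which growth signals reach the FOS promoter, rose in 7 of 8 comparisons, all but PANC1 with C646 at 96 h. In HCT116 with ICG-001 its signal went from 699.9 to 1437 at 12 h and from 709.8 to 1354 at 96 h, log2 ratios of 1.04 and 0.93. In PANC1 with this drug it went from 800.8 to 1409 at 12 h and from 1186 to 2050 at 96 h, log2 ratios of 0.82 and 0.79. The PANC1 DMSO columns thus lay apart too, and ratios of SRF to DMSO of the other time were not taken. With C646, SRF stood at 0.79 and 0.62 in HCT116 and at 1.18 in PANC1 at 12 h. MAPK3, which codes for ERK1, fell in HCT116 with ICG-001, with log2 ratios of -0.73 and -0.89. Its signal went from 842.3 to 508.2 at 12 h and from 1141 to 616.2 at 96 h. It was the 1 gene of 12 kinase genes compared that changed there, near the 8.87% and 9.93% of all genes that changed. In PANC1, RPS6KA2, a kinase downstream of ERK, rose with ICG-001 at 96 h, and MAP2K2, an ERK kinase, and MRTFA, a cofactor of SRF, fell with C646 at 12 h. These 3 were named after their values were seen. None of the 4 genes of JUN protein turnover (FBXW7, COP1, DET1 and ITCH) changed in any of the 8 comparisons. In these, 2.47% to 9.93% of all genes changed, so no change among 4 genes lies near that share.

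Of the other immediate early genes, a minority passed the threshold with ICG-001 at 12 h, all of them higher. In HCT116, 4 of 12 rose and none fell, with a median log2 ratio of 0.49, where 8.87% of all genes changed. In PANC1, 3 of 12 rose and none fell, with a median of 0.24, where 2.47% changed. IER3, KLF6 and ZFP36 were the 3 that rose in each line, with HCT116 log2 ratios of 1.25, 0.94 and 1.70 and PANC1 log2 ratios of 0.70, 0.59 and 0.65, and DUSP1 was the 4th in HCT116 at 0.81. At 96 h, 1 of 12 was higher and 2 were lower in each line, where 9.93% of all genes changed in HCT116 and 7.5% in PANC1. EGR1 fell in each, and IER5 fell in HCT116. IER3, which passed at each time in HCT116 (5901 to 14082 and 7518 to 13652), fell in PANC1 at 96 h, from 3286 to 2031, and CCN2, a matrix protein, rose there. With C646 the changes were EGR1 and IER5, lower at 12 h, and DUSP1, higher at 96 h, in HCT116, and ZFP36, higher at 12 h, in PANC1. Among the phosphatases that switch off MAP kinases, DUSP5 rose with ICG-001 at 12 h in HCT116 (1.53) and in PANC1 (0.75). In HCT116 with DMSO alone, DUSP5 stood at 2338 at 12 h and 4431 at 96 h. With ICG-001 it stood at 6747 and 3290, so it was below DMSO at 96 h. DUSP6 fell with C646 at 12 h in HCT116 (-0.61). Apart from IER3, the genes of these counts were named after their values were seen.

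Genes known to be driven by AP-1 sites formed a list of 24, among them proteases, adhesion proteins and growth factors. The list was chosen with earlier results of these data known, so its counts and medians are a description. In HCT116 with ICG-001, 8 of the 18 that could be compared rose at 12 h and 11 of 17 rose at 96 h, and none fell, where 8.87% and 9.93% of all genes changed in either direction. Their median log2 ratio was 0.50 at 12 h and 0.99 at 96 h, against a median of -0.0028 and 0.0029 over all genes compared. The 8 genes that changed at both times were led by PLAU, which codes for the protease urokinase. PLAU went from 624.0 to 2994 at 12 h and from 700.3 to 4341 at 96 h, a 4.80-fold and 6.20-fold rise. Some of these genes, CCND1 and PLAUR among them, are also known targets of β-catenin, so the list is not specific to AP-1.

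With C646 in HCT116, none of 18 rose and 1 fell at 12 h, and 1 of 17 rose and 1 fell at 96 h, with medians of -0.024 and 0.20, where 3.97% and 3.08% of all genes changed. HMGA1, a chromatin protein, was the gene that fell at each time, from 2336 to 1182 and from 2591 to 1524, and PLAUR was the one that rose. In PANC1 with ICG-001, 1 of 18 rose at 12 h and 2 of 18 at 96 h, and none fell, with medians of 0.058 and 0.065, where 2.47% and 7.5% of all genes changed. HBEGF, a ligand of the EGF receptor, was the gene that passed at each time, from 424.2 to 654.6 and from 473.7 to 803.1. With C646 in PANC1, HMGA1 was the 1 gene of 18 at 12 h and of 17 at 96 h that changed, with falls from 2279 to 705.5 and from 1361 to 636.3, where 6.58% and 3.94% of all genes changed. HMGA1 therefore fell with C646 in all 4 comparisons.

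**Figure D4:**
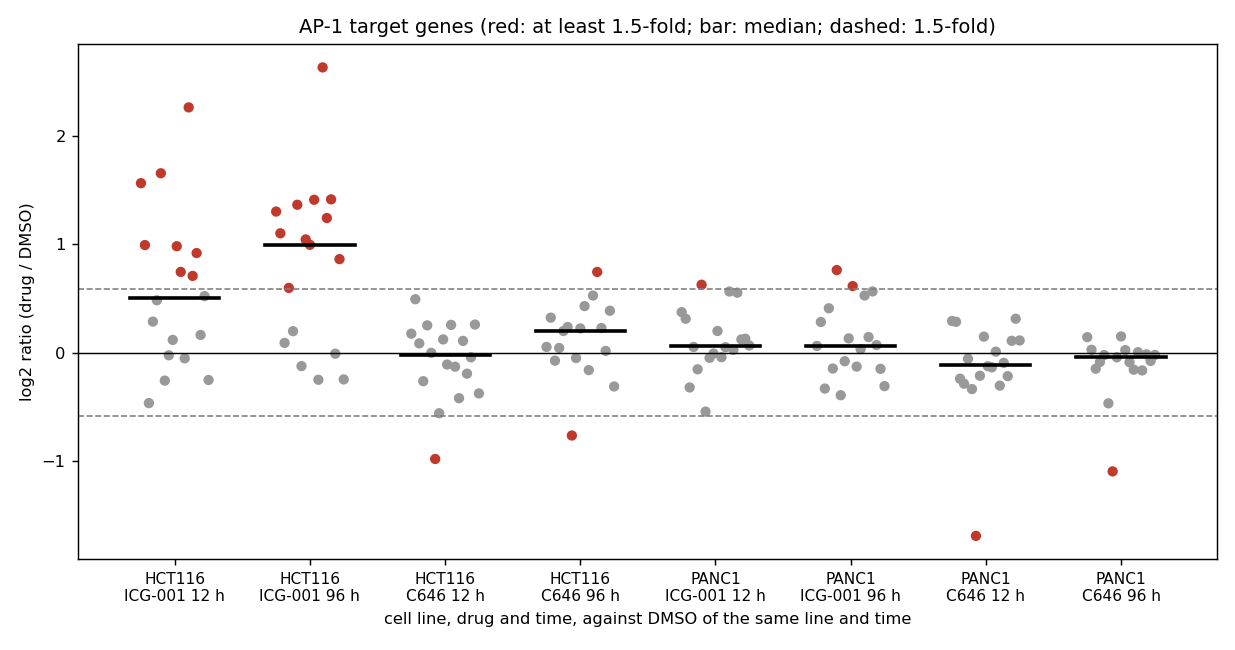
Log2 ratio to DMSO of each AP-1 target gene above the limit (points; red where the ratio was at least 1.5-fold) in the 8 comparisons, with a bar at the median and dashed lines at 1.5-fold. The bars of HCT116 with ICG-001 stand at 0.50 and 0.99, and the other 6 lie between -0.11 and 0.20.

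ICG-001 was also compared with C646 for this list, which uses no DMSO column but the same ICG-001 columns. It is not a separate check, and a gene that fell with C646 can count as higher here. In HCT116, 7 of 18 were higher with ICG-001 at 12 h and 9 of 17 at 96 h, with medians of 0.52 and 0.64, where 6.12% and 6.48% of all genes differed either way. In PANC1, 4 of 18 were higher at 12 h and 5 of 18 at 96 h, with medians of 0.088 and 0.11, where 2.46% and 6.76% differed, and none was lower in either line. PLAU was 6.43-fold and 4.30-fold higher in HCT116 cells that received ICG-001 than in those with C646, and the same ratios in PANC1 were 1.83-fold and 1.61-fold. HMGA1 counted as higher at each time in HCT116 (log2 ratios 0.72 and 0.64) and in PANC1 (1.15 and 0.70). Its ICG-001 signal was nevertheless below DMSO of the same line and time in each case.

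The genes whose pattern was most like that of JUN and FOSL1 were sought by Pearson's r over the 12 columns, with each line's mean log2 signal subtracted, among 2437 genes that were above the limit and spanned at least 1.5-fold in each line. The 12 points share the arrays and drugs of their lines, and the values describe likeness only. PHLDA1 (r = 0.93), GDF15 (0.92), a stress-induced growth factor family member, and CD55 (0.88) were closest to JUN. At 12 h GDF15 stood at 2607 (DMSO), 8740 (ICG-001) and 1242 (C646) in HCT116 and at 1427, 4346 and 823.7 in PANC1. At 96 h, in the same order, it stood at 2859, 13074 and 5065 in HCT116 and at 3780, 2485 and 1893 in PANC1. Unlike JUN, it was thus well above DMSO with C646 at 96 h in HCT116. CYB5D1 (0.94), PCGF1 (0.93) and ANKRD40 (0.93) were closest to FOSL1. Their ranges were smaller than that of FOSL1, with CYB5D1 at 567.1 to 873.2 in HCT116 and 290.4 to 472.1 in PANC1. Among the members, r was 0.66 for JUN with FOSL1, 0.54 for JUN with JUND and -0.22 for JUN with FOS, and FOSL1 was the 161st gene in likeness to JUN. Over the 8 log2 ratios to DMSO instead, r for JUN with FOSL1 was 0.82 and FOSL1 ranked 66th.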

How the data were processed

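RNA of 12 groups (2 lines, 3 treatments, 2 times) was measured on Illumina arrays. The authors exported intensity values on a linear scale, 1 per gene name, from GenomeStudio with quantile normalization and no background subtraction, averaged replicate arrays, and deposited the means, per the labels and methods. Each group thus had 1 column, no error could be given and no test was run, and the number of arrays limits the precision. Intensity was converted to log2 and subtracted between columns. A gene was compared when at least 1 column was above the detection limit and was called at 1.5-fold. Named genes were the 7 members, the 7 bZIP partners, in each other list up to 3 genes per line and drug with the largest ratio at 96 h among those changed the same way at 12 and 96 h, and the 3 genes most like JUN and FOSL1. Other genes were named after their values were seen. Some genes that fall under this rule are not reported here. The members and lists were chosen with earlier results of these data known. Gene and promoter positions came from RefSeq (GRCh38.p14), and the build of the array annotation was not given in the sources used here. The calls were repeated at 1.2-fold and 2-fold, with no filter, a limit at 5 SD, normexp with an offset of 16, centring, quantile normalization over 12 columns, other DMSO columns and, chosen after seeing the data, signals raised to the limit. The script for calls was tested on simulated data. Python 3.11.15, numpy 2.4.6, pandas 2.3.3, scipy 1.17.1, matplotlib 3.10.9 and R 4.3.3 with limma 3.58.1 were used.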

Additional observations from a re-analysis of the deposited data

Results flagged for a closer look

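FOSL1 moved in opposite directions with ICG-001 in the lines, higher than DMSO at 12 and 96 h in HCT116 (log2 ratios 1.13 and 0.84) and lower at 12 and 96 h in PANC1 (-0.39 and -0.84). The mean in HCT116 minus that in PANC1 was 1.60. With 1 column per group, the difference was not tested. By sign alone, 915 of 17455 genes were higher at both times in HCT116 and lower at both times in PANC1.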

How the results depend on the processing

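Each group had 1 column, so no replicate could be left out. No paired analysis was possible because each group had 1 column and the replicates behind it were already averaged. All 15 drug calls kept their direction under every alternative run. At 2-fold, 4 of the 15 remained: FOSL1 in HCT116 with ICG-001 at 12 h and in PANC1 with C646 at both times, and FOS in HCT116 with ICG-001 at 96 h. No filter, a limit at 5 SD and centring kept all 15 and added none. The DMSO column of the other time kept 10, and the mean of both DMSO columns kept 12. Raising signals under the limit to the limit kept 14. For HCT116 with ICG-001, over both times, 4 higher calls became 1 at 2-fold, and 3 lower calls became 5 at 1.2-fold and 1 at 2-fold. For HCT116 with C646, 0 higher calls became 2 at 1.2-fold, 2 after normexp, 2 with the other DMSO column and 1 with the mean, and 1 lower call became 5 at 1.2-fold, 0 at 2-fold, 2 after normexp, 2 with quantile normalization over 12 columns, 3 with the other DMSO column and 2 with the mean. For PANC1 with ICG-001, 1 higher call became 0 at 2-fold and with either other DMSO setting, and 1 lower call became 3 at 1.2-fold, 0 at 2-fold and 2 after normexp. For PANC1 with C646, 5 lower calls became 9 at 1.2-fold, 2 at 2-fold, 8 after normexp and 3 with the mean DMSO. For ICG-001 over C646, 2 lower calls in HCT116 became 1 at 2-fold, 4 higher calls in PANC1 became 0 at 2-fold, and 0 lower calls there became 1 after normexp. For time, 3 higher calls in HCT116 became 9 at 1.2-fold, 0 at 2-fold and 5 after normexp, and 1 lower call became 3, 0 and 2. In PANC1, 0 higher calls became 4 at 1.2-fold and 2 after normexp, and 1 lower call became 5 at 1.2-fold, 0 at 2-fold and 2 after normexp. The FOSL1 difference between the lines with ICG-001 was 1.89 after normexp. The causes of these shifts were not tested. With Spearman's rho in place of Pearson's r, the genes most like JUN were GDF15, DNTTIP1 and EIF1, and those most like FOSL1 were CYB5D1, PCGF1 and SLC39A14. Over the 8 log2 ratios to DMSO they were CIRBP, PHLDA1 and SARS for JUN and ZNHIT2, ITGB4BP and C11orf68 for FOSL1, with CYB5D1 in 18th place. Signals near the limit, as for FOS, FOSB and JUNB in PANC1, leave changes there hard to measure.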
